A study of Mus musculus with 12 samples.

Results

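The Trim30 and Trim12 genes are a compact family of 6 mouse genes on chromosome 7, Trim30a, Trim30b, Trim30c, Trim30d, Trim12a and Trim12c, which lie on the far side of a run of olfactory receptor genes from the beta-globin locus. They were chosen by symbol because their RNA varied among the mice of this outbred stock. That variation is therefore described below and supports nothing. Of the 6 genes, 5 were listed among the 18221 genes of the spleen RNA tables, and 4 passed the filter that left 12671 genes for testing (1 RPKM or more in 3 or more mice). RPKM, reads per kilobase scaled to the mapped reads of each library, is a level already divided by transcript length. Trim30c had no transcript in the tables and was not analysed here. Trim12a was listed at 0 to 0.34 RPKM and was not tested.

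RNA was sequenced from the whole spleens of 12 male ICR mice, an outbred stock in which animals do not share 1 genome, with 3 mice in each of 4 groups. Con-sa mice received saline. B-sa mice received a single injection of busulfan, an alkylating drug that depletes bone marrow, at 40 mg/kg at 3 weeks of age, followed by saline. B+Con-FMT mice received the same busulfan and then, daily for 2 weeks, an oral transfer (FMT) of pooled small intestinal content from control donors. B+A10-FMT mice received busulfan and the same schedule of content pooled from donors dosed by mouth with alginate oligosaccharides at 10 mg/kg. No genotype was given for any mouse, all spleens were collected at 8 weeks of age, and the labels name no pairing of mice between groups.

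TRIM proteins carry a RING domain that attaches ubiquitin, a B-box and a coiled coil, and many of them take part in defence against viruses. Trim30a is induced by Toll-like receptor signals and by interferon. It is known to drive the breakdown of TAB2 and TAB3, adaptors that carry the signal to NF-kB, and of the DNA-sensing adaptor STING, so it acts as a brake. Trim30d, also called Trim79, restricts flaviviruses, and Trim12a and Trim12c are mouse relatives of the retrovirus restriction factor TRIM5, of which Trim12c works with the ubiquitin ligase TRAF6. The cluster has expanded in rodents by duplication.

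All 6 genes lie on the minus strand within 208 kb of the GRCm38 assembly. Trim12a (chr7:104299893-104315558) comes first, then Trim12c (chr7:104338754-104353358), Trim30b (chr7:104355398-104358646), Trim30c (chr7:104379117-104400852), Trim30a (chr7:104409025-104465193) and Trim30d (chr7:104470014-104507853). The predicted gene Gm38525 (chr7:104354559-104369881) spans Trim30b on the same strand, so reads of these 2 genes may be shared. Trim30a and Trim30d are near copies. Their longest open reading frames were 90.2% identical, and 4.79% of the 100-base windows of the Trim30a transcript occurred unchanged in Trim30d. Of its 35-base windows 8.24% did. Trim30a was far the more abundant of the pair, so reads given to the wrong copy would weigh more on Trim30d, and how many were is not known. Trim12a shared 16.4% of its 35-base windows with Trim12c, and in the Trim30b transcripts 0.628% of the 35-base windows occurred in another member.

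The promoter windows are shown because the family is known for its response to interferon. A further reason is that Trim30b and Trim30d moved together in these spleens although the windows at their annotated starts differ. Each window holds 250 bases before and 50 bases after the annotated start (RefSeq, GRCm38.p6), read 5′ to 3′ along the gene. Capitals mark matches to GAAA, any 2 bases and GAAA again, a core of the interferon-stimulated response element, searched on both strands. A match on the opposite strand reads TTTC, any 2 bases and TTTC, and all those shown are of that kind. No other motif was searched.
Trim30a, chr7:104465144-104465443, minus strand: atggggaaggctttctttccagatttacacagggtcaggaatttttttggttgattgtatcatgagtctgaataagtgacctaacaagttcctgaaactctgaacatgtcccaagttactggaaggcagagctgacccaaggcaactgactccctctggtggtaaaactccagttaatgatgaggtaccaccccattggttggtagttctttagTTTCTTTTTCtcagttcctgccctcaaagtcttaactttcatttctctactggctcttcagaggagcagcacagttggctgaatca
Trim30d, chr7:104507800-104508099, minus strand: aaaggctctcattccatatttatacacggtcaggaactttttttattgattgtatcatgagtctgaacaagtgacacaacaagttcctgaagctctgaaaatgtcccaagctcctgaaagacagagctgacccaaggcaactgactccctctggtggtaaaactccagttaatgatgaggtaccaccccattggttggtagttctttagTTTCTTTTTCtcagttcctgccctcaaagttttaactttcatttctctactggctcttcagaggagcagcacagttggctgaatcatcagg
Trim12c, chr7:104353300-104353599, minus strand: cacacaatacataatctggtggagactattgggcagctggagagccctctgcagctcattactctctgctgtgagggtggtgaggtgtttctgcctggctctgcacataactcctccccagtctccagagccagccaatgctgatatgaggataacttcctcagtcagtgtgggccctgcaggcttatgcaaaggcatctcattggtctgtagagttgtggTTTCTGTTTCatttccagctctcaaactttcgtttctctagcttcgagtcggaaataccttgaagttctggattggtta
Trim30b, chr7:104358597-104358896, minus strand: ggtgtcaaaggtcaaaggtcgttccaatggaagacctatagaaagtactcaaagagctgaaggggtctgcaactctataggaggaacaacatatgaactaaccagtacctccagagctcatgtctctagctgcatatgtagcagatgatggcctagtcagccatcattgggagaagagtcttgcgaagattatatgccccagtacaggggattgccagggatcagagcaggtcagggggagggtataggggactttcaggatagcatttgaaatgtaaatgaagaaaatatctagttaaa
The Trim30a and Trim30d windows were 90.8% identical and held the same 10 letters, which began 36 bases before the start in Trim30a and 41 bases before it in Trim30d. In Trim12c the match began 29 bases before the start, and in Trim12a it began 10 bases after it. Trim30b had no match in its window, and its window was 47.5% identical to that of Trim30d. Nor did the window of Trim30c hold these letters. The Trim30b window may not be the promoter that the gene uses, and it lies within Gm38525. In another annotation (GENCODE) the Trim30b transcripts held 7481 different stretches of 35 bases, more than the 3249 bases of its RefSeq span can hold. Of 32851 promoter windows of the same length, 3.44% held a match.

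Spleen identity was checked on markers of B cells (Ms4a1, Cd79a and Cr2), T cells and red pulp macrophages, all of which were detected. The spleens also held RNA of genes typical of other organs, and its source was not tested. Summed levels of 8 pancreatic acinar genes ran from 309 to 8332 RPKM over the 12 mice, and Kap, a gene of the kidney, averaged 93.9 RPKM in Con-sa spleens and 33.4, 11.1 and 1.66 RPKM in those of B+Con-FMT, B-sa and B+A10-FMT, while the other kidney marker, Umod, averaged under 1 RPKM. The RPKM of a mouse summed to 677033 to 772157. The depth of each library is unknown because the tables hold no read counts.

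Trim30a and Trim12c were the abundant members. Trim30a was at 36.38, 45.79 and 33.08 RPKM in the 3 Con-sa mice and at 31.47, 26.61 and 22.29 RPKM in the 3 B-sa mice. In B+Con-FMT it was at 24.71, 28.61 and 27.95 RPKM, and in B+A10-FMT at 33.28, 46.49 and 37.35 RPKM. Every Con-sa and every B+A10-FMT spleen thus held more Trim30a RNA than any spleen of the other 2 groups. The group means were 39.0 ± 6.77 RPKM in B+A10-FMT, 38.4 ± 6.60 in Con-sa, then 27.1 ± 2.09 in B+Con-FMT and lastly 26.8 ± 4.59 in B-sa (SD, n = 3). Of the neighbours in that order, only Con-sa and B+Con-FMT did not overlap.

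Trim12c, the TRIM5 relative that lies nearest to Trim30b, had another order of levels. It was at 22.69, 15.95 and 25.33 RPKM in Con-sa and at 35.48, 34.82 and 32.37 RPKM in B-sa. After transfer it was at 31.17, 24.76 and 31.54 RPKM in B+Con-FMT and at 30.63, 33.95 and 35.38 RPKM in B+A10-FMT. Con-sa spleens were lowest, and 1 B+Con-FMT spleen reached down into their range. The means were 34.2 ± 1.64 RPKM in B-sa, 33.3 ± 2.44 in B+A10-FMT, 29.2 ± 3.81 in B+Con-FMT and 21.3 ± 4.84 in Con-sa (SD, n = 3), and each neighbouring pair in this order overlapped.

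Trim30b and Trim30d were less abundant. Trim30b was at 5.21, 8.05 and 4.95 RPKM in Con-sa and at 1.97, 1.56 and 1.48 RPKM in B-sa. It was at 1.42, 2.91 and 2.17 RPKM in B+Con-FMT and at 2.51, 3.78 and 3.77 RPKM in B+A10-FMT. All Con-sa spleens stood above all others. The means fell in the order Con-sa (6.07 ± 1.72 RPKM), B+A10-FMT (3.35 ± 0.730), B+Con-FMT (2.17 ± 0.745) and B-sa (1.67 ± 0.263; SD, n = 3), and only the first pair in that order did not overlap.

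Trim30d, the flavivirus restriction gene, had the largest ratio of highest to lowest level among the 4 tested members, at 36.9. It was at 3.94, 7.38 and 3.17 RPKM in Con-sa and at 0.40, 0.54 and 0.27 RPKM in B-sa. It was at 0.20, 2.03 and 0.85 RPKM in B+Con-FMT and at 1.88, 3.71 and 2.16 RPKM in B+A10-FMT. Within B+Con-FMT alone, 1 mouse lay below every B-sa mouse and another lay above the lowest B+A10-FMT mouse. The means kept the order seen for Trim30b, at 4.83 ± 2.24, 2.58 ± 0.986, 1.03 ± 0.928 and 0.403 ± 0.135 RPKM (SD, n = 3), and each neighbouring pair overlapped. Trim12a stayed near the floor, with group means of 0.0967 to 0.213 RPKM, and no pair of neighbours in its order was separated.

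**Figure D1:**
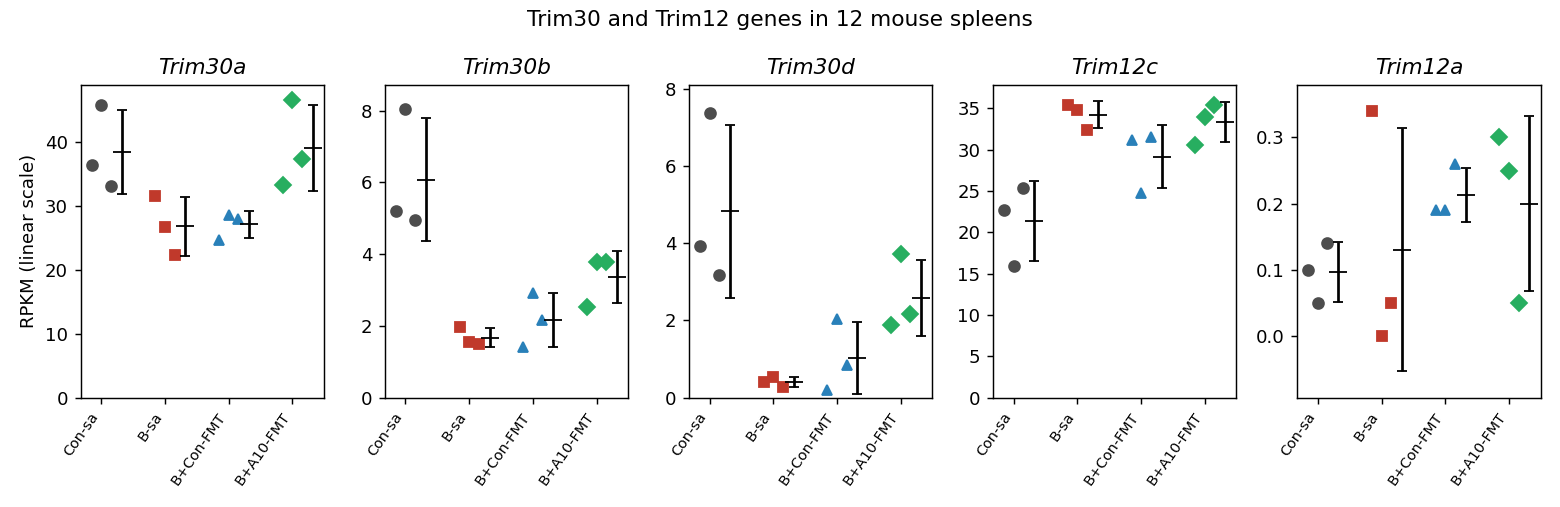
Level of each listed gene, in RPKM on a linear axis, in each spleen (points, replicates 1 to 3 from left to right in each of 4 groups), with the group mean and SD (bar, n = 3) beside them; each panel has its own scale. Trim30a, Trim30b and Trim30d are highest in Con-sa or B+A10-FMT, Trim12c is lowest in Con-sa, and Trim12a does not exceed 0.34 RPKM.

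The values that chose these genes were their differences between mice. The highest spleen held 36.9 times the Trim30d level of the lowest, against 5.67 times for Trim30b, 2.22 times for Trim12c and 2.09 times for Trim30a; the median of all tested genes was 1.38. Mice of the same group also differed. The within-group SD of log2(RPKM + 1) was 0.47 for Trim30d, 0.28 for Trim30b, 0.21 for Trim30a and 0.20 for Trim12c, which placed them at percentiles 98.5, 95.5, 91.5 and 90.1 of the genes tested, where the median gene had 0.0991. Differences between groups held 84.2% of the variance of Trim30b, 80.3% for Trim30d, 73.1% for Trim12c and 67.6% for Trim30a, beside a median of 49.6% over all genes. These are descriptions without a test.

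Trim30b and Trim30d rose and fell together from mouse to mouse. Over the 12 mice Pearson's r of their log2 levels was 0.97, and it was 0.89 after the group means were removed. Trim30a was like both of them, with r of 0.83 to Trim30b and 0.87 to Trim30d. Trim12c ran the other way, with r of −0.77 to Trim30b, −0.72 to Trim30d and −0.41 to Trim30a. The points share their mice, groups and libraries, and Trim30a and Trim30d also share sequence.

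The first comparison asked what busulfan alone did. In B-sa spleens Trim30b, Trim30d and Trim30a were lower and Trim12c was higher than in Con-sa. All 4 tested members passed the test (limma, Benjamini-Hochberg adjusted p under 0.05), beside 14.5% of all genes tested. Of the 4, 3 were lower (9.78% of all genes were) and 1 was higher (4.73%). The groups did not overlap for any of the 4, beside 34% of all genes, of which 22.8% lay wholly lower and 11.2% wholly higher. Since the genes were picked for their differences among these same mice, nothing is read from these counts. Trim30d fell by 1.99 on the log2(RPKM + 1) scale (SE 0.35, adjusted p = 0.00865) and Trim30b fell by 1.38 (SE 0.20, adjusted p = 0.00376). Trim12c rose by 0.68 (SE 0.14, adjusted p = 0.0131). Trim30a fell by 0.50 (SE 0.15, adjusted p = 0.0494). The scale understates the change of genes as low as Trim30d, which fell by 3.23 with a pseudocount of 0.1.

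These calls were not equally firm. None of the 4 was kept when the share of Hbb-bs and Hbb-bt in the adult beta-globin RNA of each mouse was added as a covariate after the data had been seen (adjusted p = 0.421 for Trim30b and 0.613 for Trim30d, with differences of −0.44 and −0.39). Group and share do not overlap in this comparison, and that fit called 0 of all 12671 genes. Its outcome therefore says nothing about how firm these 4 calls are. The Trim30a call was lost in 5 of the 6 fits that left out 1 mouse (adjusted p 0.0265 to 0.144, kept only without B-sa replicate 1), and also without the filter on low levels (adjusted p = 0.0622), with median-of-ratios scaling (0.0682), with curated transcripts alone (0.101) and with the 2 groups fitted alone (0.0843). Without B-sa replicate 2 the Trim12c call was lost too (adjusted p = 0.0547), which left 2 of 4. The smallest p that an exact permutation test of 3 mice against 3 can give is 0.1, and it was reached by all 4 genes. In a bulk spleen, fewer cells of a type and less RNA per cell cannot be told apart. The B cell markers Ms4a1 and Cd79a fell in the same comparison, by 0.38 and 0.32 on the log2 scale, while Cr2 was not called (−0.089, adjusted p = 0.608), and Kap fell as well. None of 4 T cell, 4 red pulp macrophage and 8 myeloid markers was called by limma, and at an unadjusted p under 0.05 there were 0, 0 and 1, beside 31.3% of all genes. The summed level of the myeloid markers was nonetheless 2782 to 3719.9 RPKM in B-sa against 2147 to 2314 in Con-sa, and 6 of the 8 did not overlap between the groups, beside 34% of all genes. Of 4 erythroid genes Hba-a1 rose by 0.30 (adjusted p = 0.0496) and Hbb-bs fell by 10.63 (adjusted p = 0.0135), and 4 of 4 had an unadjusted p under 0.05. Of the other adult beta-globin genes, Hbb-bt fell too (−8.82, adjusted p = 0.0165), while Hbb-b1 (1.53, adjusted p = 0.0218) and Hbb-b2 (1.41, adjusted p = 0.0305) rose. The summed RPKM of these 4 beta-globin genes was 85841 to 105833 in B-sa against 71143 to 74808 in Con-sa, so the fall of Hbb-bs was not a fall of beta-globin RNA as a whole. The part of these in the Trim result was not tested.

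The second comparison asked what the control transfer added after busulfan. None of the 4 members was called by limma in B+Con-FMT against B-sa, beside 0.844% of all genes, and none had an unadjusted p under 0.05, beside 18.4% of all genes. Trim30d was 0.43 higher on the log2 scale (95% interval −0.34 to 1.21, adjusted p = 0.557) and Trim30b was 0.22 higher (−0.21 to 0.65, adjusted p = 0.597). Trim12c was 0.23 lower (−0.54 to 0.083, adjusted p = 0.429), and all 3 of its B+Con-FMT values lay below all 3 of B-sa, as was the case for 9.05% of all genes. Without B+Con-FMT replicate 2 the difference was −0.12. Trim30a differed by 0.026 (−0.31 to 0.36, adjusted p = 0.952), or by −0.025 with totals outside the globin genes set equal. The interval of Trim30d was the widest of the 4. Its difference ran from 0.091 without B+Con-FMT replicate 2 to 0.76 without replicate 1 of that group, and that of Trim30b from 0.057 to 0.40 without the same mice. With a pseudocount of 0.1 Trim30d was 0.79 higher. Among the marker lists 1 of 4 T cell genes rose (Cd3e, 0.48, adjusted p = 0.0492), and 0 of 8 acinar genes were called by limma although 8 of 8 had an unadjusted p under 0.05. Of 4 erythroid genes 0 were called and 3 had an unadjusted p under 0.05, with Hbb-bs 6.34 higher (adjusted p = 0.156). Kap was 1.35 higher and was not called. Their part was not tested.

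The third comparison asked what the transfer from alginate-dosed donors added after busulfan. Trim30a, Trim30b and Trim30d were higher in every B+A10-FMT spleen than in any B-sa spleen, as were 19.7% of all genes, but none of the 4 members passed the adjusted threshold, beside 5.27% of all genes that did. At an unadjusted p under 0.05 there were 3 of 4, and 24.5% of all genes. Trim30d was 1.32 higher on the log2 scale (95% interval 0.55 to 2.10, adjusted p = 0.0546), Trim30b 0.70 (0.27 to 1.12, adjusted p = 0.0602) and Trim30a 0.53 (0.19 to 0.86, adjusted p = 0.0688). Trim12c differed by −0.039 (−0.35 to 0.27, adjusted p = 0.897). With a pseudocount of 0.1 Trim30d was 2.39 higher. The adjusted p of the 3 Trim30 genes lay just above the threshold. With the 2 groups fitted alone Trim30d (adjusted p = 0.0170) and Trim30b (0.0471) were called, and without B-sa replicate 1 Trim30a was called (0.0419). The direction of Trim12c was not stable, as it turned to 0.019 without B+A10-FMT replicate 1.

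The fourth comparison set the 2 transfers against each other. Levels of all 4 members were on average higher after the alginate-primed transfer than after the control transfer, and none was called, beside 10.4% of all genes that were. An unadjusted p under 0.05 was reached by 3 of 4, and by 28.9% of all genes. Trim30a was 0.50 higher on the log2 scale (95% interval 0.16 to 0.84, adjusted p = 0.0593) and its groups did not overlap, as was so in this direction for 23.8% of all genes. Trim30d was 0.89 higher (0.12 to 1.66, adjusted p = 0.125) and Trim30b 0.47 higher (0.043 to 0.90, adjusted p = 0.138), with overlapping groups. Without B+Con-FMT replicate 1 these became 0.56 and 0.29, and with a pseudocount of 0.1 Trim30d was 1.60 higher. Trim12c was 0.19 higher (−0.12 to 0.51, adjusted p = 0.400), or 0.083 without B+Con-FMT replicate 2. Trim30a was called with the 2 groups fitted alone (adjusted p = 0.0449), with totals outside the globin genes set equal (0.0235) and without B+A10-FMT replicate 1 (0.0467). The B-sa spleens serve in the first 3 comparisons and the transfer groups in 2 each, so these results are not independent of one another. Red pulp macrophage markers moved with both results: 2 of 4 rose against B-sa and 3 of 4 against B+Con-FMT, and their summed level was 325 to 390 RPKM in B+A10-FMT against 234 to 284 in B-sa and 219 to 280 in B+Con-FMT. Of 8 myeloid markers, 1 was called against B-sa, the receptor gene Csf1r (0.46), with a list median of 0.14. Against B+Con-FMT 2 of the 8 were called, Csf1r (0.46) and Cd68 (0.33, adjusted p = 0.0442), with a median of 0.31. Of all genes 5.27% and 10.4% were called in these comparisons. Kap fell in both. Against B-sa the erythroid genes Hba-a1 (−0.38, adjusted p = 0.0390) fell and Hbb-bs (9.22, adjusted p = 0.0388) rose. Hbb-bt rose as well (7.42, adjusted p = 0.0483), while Hbb-b1 (−0.73, adjusted p = 0.216) and Hbb-b2 (−0.65, adjusted p = 0.280) were lower and not called. The summed RPKM of the 4 adult beta-globin genes was 64756 to 83265 in B+A10-FMT against 85841 to 105833 in B-sa. Against B+Con-FMT the median of 8 acinar genes was −2.88, with 0 called by limma and 5 at an unadjusted p under 0.05. The part of these in the Trim values was not tested.

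**Figure D2:**
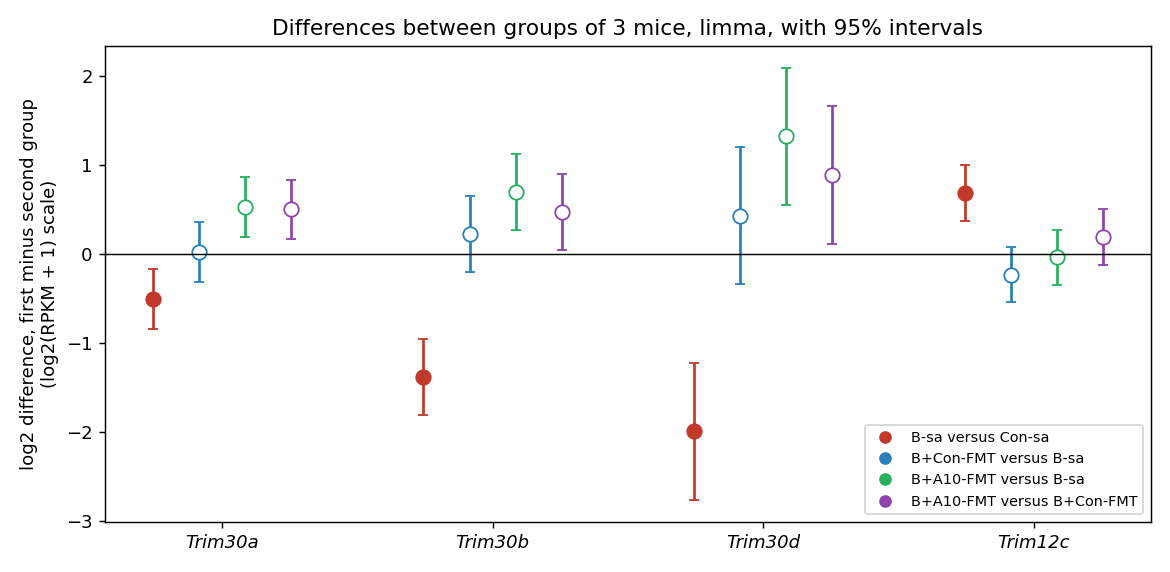
Difference between groups (first minus second, on the log2(RPKM + 1) scale) of the 4 tested members in each of 4 comparisons of 3 mice against 3, with 95% intervals from limma; filled points had an adjusted p under 0.05 and open points did not. The filled points all belong to B-sa versus Con-sa, where Trim12c lies at 0.68 and the other 3 genes between −0.50 and −1.99.

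Neighbouring genes were read in the same fit. In the stretch from 500 kb before to 500 kb after the family, 28 genes were listed and most of them, olfactory receptors above all, were near 0. Besides the 4 members, only Trim34a, Trim5, Trim34b and Gm38525 averaged 1 RPKM or more outside the globin genes. Trim34a was at 14.1 ± 3.23 RPKM in Con-sa and 7.96 ± 0.744 in B-sa (SD, n = 3), a fall of 0.74 on the log2 scale (SE 0.16, adjusted p = 0.0159). Trim5, the counterpart of the restriction factor itself, fell by 0.90 (SE 0.19, adjusted p = 0.0124), from 6.26 ± 1.81 to 2.83 ± 0.465 RPKM. Gm38525, which overlaps Trim30b, fell by 1.08 (SE 0.17, adjusted p = 0.00488). Trim34b, which lies between Trim12a and Trim12c, was not called (difference −0.16, SE 0.18, adjusted p = 0.559). Genes called lower, called higher and not called thus lay side by side. In B+A10-FMT against B-sa, Trim34a (0.57, adjusted p = 0.0635) and Gm38525 (0.61, adjusted p = 0.0530) were not called, and both lay wholly above B-sa, as did 19.7% of all genes. Trim5 (0.47, adjusted p = 0.152) and Trim34b (0.36, adjusted p = 0.231) were not called either, and their groups overlapped.

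**Figure D3:**
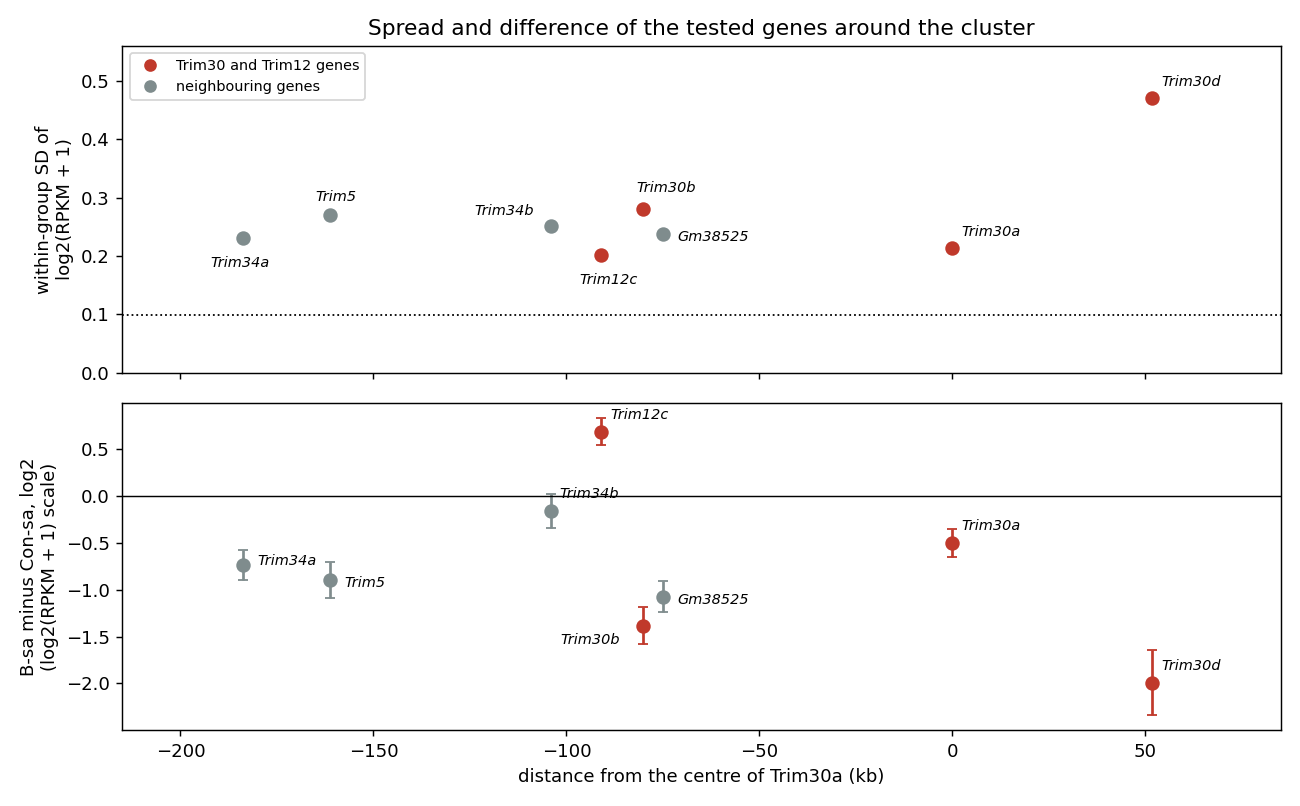
Tested genes of the cluster by distance in kb from the centre of Trim30a, with the within-group SD of log2(RPKM + 1) above (dotted line, the median of 0.0991 over all tested genes) and the B-sa minus Con-sa difference with its SE (bars, limma) below. All 8 genes lie above the dotted line, and Trim12c is the one with a positive difference.

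The adult beta-globin genes also differed from mouse to mouse. Mouse strains carry either the pair Hbb-bs and Hbb-bt, as the reference strain does, or the pair Hbb-b1 and Hbb-b2, and an outbred animal can carry both. Hbb-bs (chr7:103826523-103827928) ranged from 9.2 to 45902 RPKM over the 12 spleens. As a share of the RPKM of these 4 genes, Hbb-bs and Hbb-bt together held 41.4%, 75.3% and 35.1% in the Con-sa mice and 0.0497%, 0.0319% and 0.0220% in the B-sa mice. The share was 0.0619%, 27.2% and 6.09% in B+Con-FMT and 13.0%, 23.8% and 20.2% in B+A10-FMT. All Con-sa mice stood above all others, all B-sa mice below all others, and the B+Con-FMT mice were spread between. The share is an RNA value and not a genotype. Above the values near 0 it formed no clear classes, with mice at 6.09%, 13.0%, 20.2%, 23.8%, 27.2%, 35.1%, 41.4% and 75.3%. What sets the share, the assignment of reads between these genes included, was not tested. The alpha-globin gene Hba-a1, on another chromosome, varied only from 93037 to 144299 RPKM.

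Member levels went with that share from mouse to mouse. Over the 12 mice r was 0.96 for Trim30b, 0.93 for Trim30d, 0.73 for Trim30a and −0.90 for Trim12c. With the group means removed from both, r was 0.88, 0.89, 0.66 and −0.87. Within each of the 4 groups the 3 mice stood in the same order by share and by Trim30a and by Trim30b, and in 3 of 4 groups by Trim30d. In B-sa this order ranks shares of only 0.0220% to 0.0497%. The order by Trim12c was the reverse of that by share in 1 of 4 groups, Con-sa, and was the same as it in another, B-sa. In B+A10-FMT the mouse with the lowest share (13.0%) also had the lowest Trim12c (30.63 RPKM). In B+Con-FMT, for example, the mouse with a share of 27.2% had the highest Trim30b (2.91 RPKM) and Trim30d (2.03) and the lowest Trim12c (24.76), and the mouse with 0.0619% had the lowest Trim30b (1.42) and Trim30d (0.20). Among the neighbours r was 0.95 for Gm38525, 0.91 for Trim5, 0.86 for Trim34a and 0.38 for Trim34b. These are descriptions; the r values over 12 mice contain the group differences, and 4 of the 12 shares lie near 0.

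With the share as a covariate, a fit added after the data had been seen, none of the 4 members was called by limma in B-sa against Con-sa, and none had an unadjusted p under 0.05. Their differences became −0.44 for Trim30b (SE 0.22), −0.39 for Trim30d (SE 0.31), 0.011 for Trim12c (SE 0.15) and 0.035 for Trim30a (SE 0.23). Of all 12671 genes, that fit called 0, with 1646 at an unadjusted p under 0.05. Group and share do not overlap in this comparison, so what busulfan did to the Trim genes and what goes with the beta-globin share cannot be told apart. In B+A10-FMT against B+Con-FMT, where the shares do overlap, the same fit called Trim30d (0.64 higher, SE 0.16, adjusted p = 0.0417) and Trim12c (0.30 higher, SE 0.080, adjusted p = 0.0480), beside 814 of all genes. In B+A10-FMT against B-sa, where they do not, it called none of the members. There the differences were 0.72 for Trim30d, 0.34 for Trim30b, 0.32 for Trim30a and 0.21 for Trim12c. All 4 had an unadjusted p under 0.05, as had 18.7% of all genes, of which 136 were called.

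**Figure D4:**
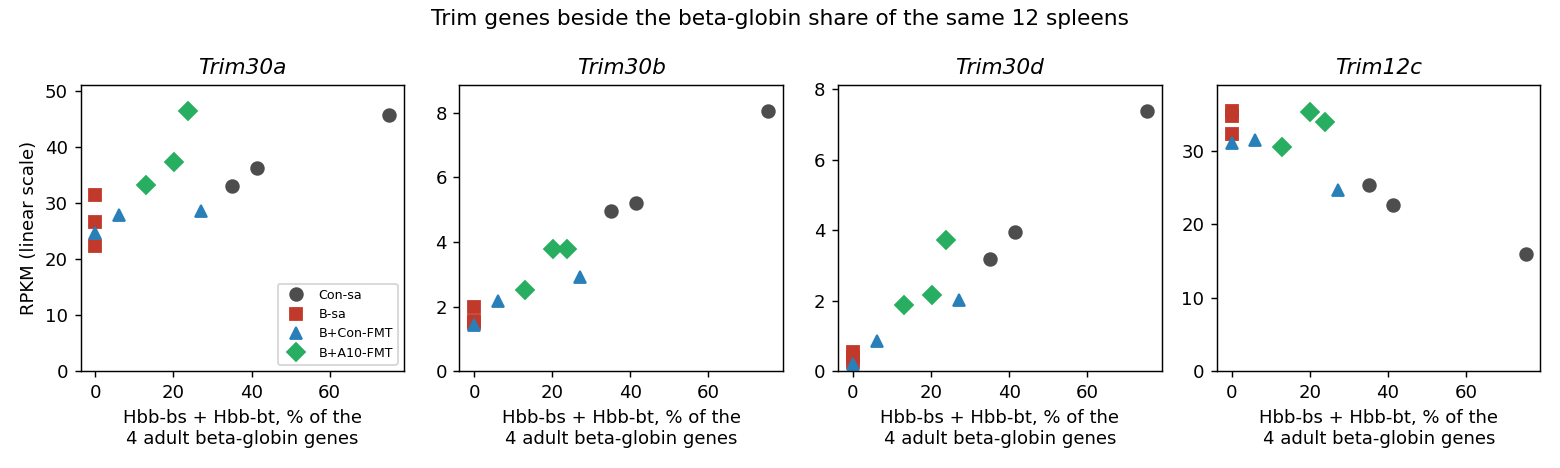
Level of each tested member in RPKM (linear axis) against the share of Hbb-bs and Hbb-bt, in percent of the summed RPKM of the 4 adult beta-globin genes, in the same 12 spleens (symbols mark the groups). Trim30b and Trim30d climb and Trim12c declines toward the Con-sa mouse at 75.3%, and the B-sa mice sit at under 0.1%.

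The genes whose pattern over the 12 mice was most like that of the members lay partly in the cluster itself. For Trim30b they were Gm38525 (r = 0.97), Trim30d (0.97) and Trim5 (0.97), and for Trim30d they were Gm38525 (0.98), Trim30b (0.97) and, from chromosome 10, the elongation factor gene Eef2 (0.95). Trim30a was closest to Mr1 (0.95), which presents microbial vitamin B metabolites to T cells, to Trim34a (0.94) and to Pld4 (0.94), a nuclease of immune cells. Trim12c was closest to Lpcat1 (0.90), Sri (0.89) and Mllt3 (0.89), none of them on chromosome 7. Of the 20 genes most like each member, 5 were on chromosome 7 for Trim30b and for Trim30d, and 1 for Trim30a and for Trim12c, where 7.69% of all tested genes were. Within the window around the family lay 4, 5, 1 and 0 of them. The most opposite gene, named outside that rule, was Hbb-b1 for Trim30b (r = −0.95), Nucks1 for Trim30d (−0.95), Atf4 for Trim30a (−0.93) and Slc15a4 for Trim12c (−0.97).

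Transcript shares within a gene were also read. In Con-sa the main Trim30d transcript supplied 73.5 ± 8.24% of the gene's RPKM and a second curated transcript 25.5 ± 9.40% (SD, n = 3). In B+A10-FMT the second supplied 58.2 ± 15.4% and the main one 39.3 ± 19.7%. These shares were not tested, and in B-sa and B+Con-FMT the gene was too low for the shares to be read. Trim30a kept 70.2% to 74.4% in its main transcript in every group, and Trim12c kept 78.7% to 88.3%.

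Other Trim genes were compared over a list of 31, of which 27 were tested. Against Con-sa, 8 of the 27 were lower in B-sa and 0 higher (9.78% and 4.73% of all genes were), with a median of −0.15 beside −0.044 over all genes; of the 3 tested in the cluster 2 fell, and of the 24 elsewhere 6 fell. Outside the cluster the largest of these was Trim65 (−0.49, adjusted p = 0.00778), a ubiquitin ligase of the RNA sensor MDA5. In B+Con-FMT against B-sa only Trim65 rose, by 0.58 (adjusted p = 0.0128), where 0.844% of all genes were called. In B+A10-FMT against B-sa 3 rose, all outside the cluster, namely Trim56 (0.50, adjusted p = 0.0264), Trim14 (0.37, adjusted p = 0.0268) and Trim25 (0.27, adjusted p = 0.0264), which act in the sensing of viral nucleic acids, where 5.27% of all genes were called. Between the transfers Trim23 was 0.25 higher (adjusted p = 0.0463) and Trim65 lower (−0.33, adjusted p = 0.0392) in B+A10-FMT, where 10.4% of all genes were called.

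Of 36 interferon-stimulated genes tested, only the RNA sensor gene Ddx58 fell after busulfan alone (−0.28, adjusted p = 0.0488), where 9.78% of all genes fell, and the median of the list was 0.057. In B+Con-FMT against B-sa 0 of 36 were called by limma, with 3 at an unadjusted p under 0.05 (18.4% of all genes) and a median of −0.051. In B+A10-FMT 2 rose against B-sa, Ifit1bl1 (0.59, adjusted p = 0.0487) and Ddx58 (0.42, adjusted p = 0.0216), beside 5.27% of all genes called, with a median of 0.39 beside 0.046 over all genes. Against B+Con-FMT 5 rose, among them Eif2ak2, the kinase PKR (0.61, adjusted p = 0.0323), Ifit1bl1 (0.57, adjusted p = 0.0412) and the GTPase gene Gbp3 (0.36, adjusted p = 0.0296), beside 10.4% of all genes called, with a median of 0.35 beside 0.046.

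The partners of these proteins were followed in a list of 25 genes of Toll-like receptor and STING signalling, all of them tested. In B-sa 3 fell against Con-sa, the adaptor gene Traf3 (−0.27, adjusted p = 0.0205) and the kinase genes Irak4 (−0.24, adjusted p = 0.0338) and Tbk1 (−0.19, adjusted p = 0.0479), beside 9.78% of all genes that fell. In B+Con-FMT against B-sa limma called 0 of 25, with 6 at an unadjusted p under 0.05, beside 18.4% of all genes. In B+A10-FMT the inflammasome gene Nlrp3 (0.53, adjusted p = 0.0101) and the RNA receptor gene Tlr7 (0.51, adjusted p = 0.0287) rose against B-sa, where 5.27% of all genes were called. Against B+Con-FMT 3 rose, Tlr7 (0.61, adjusted p = 0.00964), Nlrp3 (0.43, adjusted p = 0.0150) and the endotoxin receptor gene Tlr4 (0.31, adjusted p = 0.0485), and 1 fell, where 10.4% of all genes were called. The list medians were −0.13, 0.022, 0.12 and 0.12 in the order of the 4 comparisons. Tab2 and Tab3, whose proteins Trim30a acts on, and Traf6 were not called in any comparison. Tab2 was at 62.3 ± 0.688 RPKM in Con-sa and 60.4 ± 1.83 in B-sa, and Tab3 at 11.5 ± 1.01 and 12.5 ± 1.37 (SD, n = 3). In B+Con-FMT Tab3 lay wholly below its B-sa values (−0.23, unadjusted p = 0.0120, adjusted p = 0.158), as did 9.05% of all genes, and 18.4% had an unadjusted p under 0.05. Between the transfers, where 23.8% of all genes lay wholly higher in B+A10-FMT and 28.9% had an unadjusted p under 0.05, Tab2 (0.12, unadjusted p = 0.0296, adjusted p = 0.128) and Tab3 (0.20, unadjusted p = 0.0241, adjusted p = 0.115) were among both. Nothing particular to Tab2 and Tab3 is read from these values.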

How the data were processed

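Spleen RNA of 12 mice was analysed, 3 in each of 4 groups taken from the sample labels. The deposited tables give RPKM values for 60654 transcripts, which the authors made from reads mapped, per the published methods, with SOAPaligner, allowing few mismatches; the submitters' processing notes name HISAT, Bowtie2 and mm10. The methods name an Illumina sequencer and the labels a BGISEQ protocol. Whether alleles that differ from the reference strain lose reads was not tested. The RPKM of all transcripts was summed per gene, and 18101 of 18221 genes matched a symbol in a RefSeq table. Genes with at least 1 RPKM in at least 3 mice were fitted as log2(RPKM + 1) with limma 3.58.1 (R 4.3.3; trend and robust moderation, 12 mice, group only), with Benjamini-Hochberg adjustment over 12671 genes and a threshold of 0.05, two-sided. The p-values set a difference between groups against the spread between mice within groups. The script was tested on simulated data. Sequences came from RefSeq promoter windows and GENCODE M21 transcripts. The named genes were the 6 members, the 3 genes most like each (Pearson's r over 12 mice), up to 3 called genes of largest change per list and comparison, and neighbours within 500 kb at a mean of at least 1 RPKM; Tab2, Tab3, Traf6, marker genes, the globin genes and the gene most opposite to each member were added. A marker gene of the lists is not reported here. The members and lists were chosen with earlier results of these data known. The alternatives were a pseudocount of 0.1, no filter, a replicate block, other scalings, curated transcripts, 2-group fits and leaving out each mouse.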

Additional observations from a re-analysis of the deposited data

How the results depend on the processing

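The 4 calls in B-sa against Con-sa were kept with a pseudocount of 0.1, a replicate block and equal totals outside the globin genes, and 3 of 4 were kept with no filter, median-of-ratios scaling, curated transcripts alone and only the 2 groups fitted. With the share of Hbb-bs and Hbb-bt as covariate, chosen after seeing the data, 0 were called, as was so for all genes. Share and group do not overlap in that comparison, so this fit cannot judge the 4 calls. Leaving out 1 mouse gave 2 to 4 calls there, 0 in B+Con-FMT against B-sa and 0 to 1 in each B+A10-FMT comparison. In B+A10-FMT against B-sa the count rose from 0 to 2 with the replicate block and with only the 2 groups. Against B+Con-FMT it rose from 0 to 2 with the replicate block and with the covariate, and to 1 with equal totals and with only the 2 groups. The replicate numbers do not pair the mice: same-numbered mice of compared groups had correlations of deviations of −0.37 to 0.19, so the block is no sign of a stronger effect. The sign of 3 values turned. Trim30a in B-sa against Con-sa became 0.035 (SE 0.23) with the covariate, where no direction can be read because share and group do not overlap. Trim30a in B+Con-FMT against B-sa became −0.025 with equal totals and −0.092 with the covariate, and ran from −0.095 to 0.14 when 1 mouse was left out. Trim12c in B+A10-FMT against B-sa became 0.21 with the covariate and ran from −0.082 to 0.019 when 1 mouse was left out. The shares of these 2 groups do not overlap either. Causes were not tested. Counts over all genes moved by more than 1.5 times as follows. In B-sa against Con-sa, 1838 became 741 with curated transcripts, 1003 with 2 groups, 0 with the covariate and 513 to 2100 without 1 mouse. In B+Con-FMT against B-sa, 107 became 71 with no filter, 180 with equal totals, 25 with curated transcripts, 32 with 2 groups and 19 to 466 without 1 mouse. Against B-sa, 668 in B+A10-FMT became 417 with the block, 203 with curated transcripts, 184 with 2 groups, 136 with the covariate and 106 to 832 without 1 mouse. Against B+Con-FMT, 1312 became 2339 with equal totals, 546 with curated transcripts, 814 with the covariate and 218 to 1160 without 1 mouse. Tests on counts (edgeR and DESeq2, with TMM or size factors) were not run because the tables hold RPKM, and Trim30d could not be fitted with only the groups B+Con-FMT and B-sa because it failed the filter there. Depth is unknown, and Trim12a is too low to be compared.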
